A study of Mus musculus with 24 samples.

Results

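The comparison described here asks whether RG6146 changed gene expression differently in 2 mouse tumour cell lines that were exposed to TNF at the same time. It is the change from TNF to TNF with RG6146 in E0771 cells minus the same change in MC38 cells, taken over every gene that could be tested, so that a positive difference means a larger rise or a smaller fall in E0771. E0771 comes from a mouse breast adenocarcinoma and MC38 from a mouse colon adenocarcinoma. The labels name no genetic change in either line, although the growth protocol given for all samples speaks of MC38-Ova cells. All cells were treated in culture for 3 h: the TNF groups received 10 ng/mL recombinant mouse TNF, and the TNF+RG6146 groups received the same TNF with 2.5 µM RG6146, an inhibitor of BET bromodomains. Each of the 4 groups had 3 libraries, which made 12 of the 24 libraries of the study. The other 12 were the same lines with the solvent DMSO or with 2.5 µM RG6146 alone, and were used for the comparison without TNF. Of 43629 genes in the count table, 13566 had enough counts in the 12 libraries to be tested.

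TNF binds its receptor on the cell surface and releases the transcription factor NF-kB from inhibitor proteins, of which IkBa, the product of Nfkbia, is the best known. NF-kB then switches on chemokines, adhesion molecules and survival genes, and also its own inhibitors, Nfkbia and Tnfaip3, which limit the response. BET proteins bind acetylated histones and help RNA polymerase II into elongation through the kinase P-TEFb. Inhibitors of their bromodomains lower many inducible genes, and raise Hexim1, which encodes an inhibitor of P-TEFb, together with a group of polyadenylated histone transcripts.

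The 12 libraries held between 5392808 and 9132814 counts each. The labels do not say whether the 3 libraries of a group came from separate cultures, and p-values therefore cover the spread among the libraries as deposited, which may be technical. Some libraries stood apart. MC38 TNF+RG6146 replicate 2 held leukocyte marker transcripts, with a sum over 28 genes of 2015 CPM, that is counts scaled to the library total, where the remaining 11 libraries of that line had 6.49 to 35.3 CPM. E0771 TNF replicate 2 had 0.376% of its counts in mitochondrial ribosomal RNA, whereas the other 11 E0771 libraries had between 2.37% and 3.21%. MC38 TNF replicate 1 also lay far from the other members of its group, as did MC38 DMSO replicate 2 among the libraries without TNF. Their root mean square log2 distances from the mean of those members were 0.591 and 0.561. The second had 0.609% of its counts in mitochondrial ribosomal RNA. These 4 libraries were named without a fixed limit. E0771 TNF replicate 3, with a distance of 0.566, was not counted among them. The epithelial markers were low in both lines, with 1 of 19 at 10 CPM or more in any group of each line and 6 at 0 in each, while 4 of 10 fibroblast markers reached that level in each line. All CPM given below, other than marker sums, are scaled by TMM over the 24 libraries, and changes are log2 fold changes ± SE from groups of 3 libraries.

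In each line RG6146 changed many genes in the presence of TNF, and the lines shared a part of them. In E0771 961 genes passed an adjusted p of 0.05 (7.08% of those tested), with 395 higher (2.91%) and 566 lower (4.17%) under TNF+RG6146 than under TNF. In MC38 there were 1210 (8.92%), with 445 higher (3.28%) and 765 lower (5.64%). Scaled by library totals alone, the share of higher genes was 32.6% instead of 41.1% in E0771 and 29% instead of 36.8% in MC38. Of these genes 378 were called in both lines with the same sign, 146 higher and 232 lower, which was 39.3% of the E0771 genes and 31.2% of the MC38 genes. No gene was called in both lines with opposite signs. Prdm1, which encodes the transcriptional repressor Blimp-1, shows the shared response: it averaged 37.5 ± 2.52 CPM (SD, n = 3) under TNF in E0771 and 5 ± 0.247 with RG6146, and 22.7 ± 5.27 and 4.13 ± 1.94 in MC38. Klf2, a Krüppel-like transcription factor gene, rose by 2.85 ± 0.20 in E0771 and by 2.52 ± 0.24 in MC38, although its level under TNF was 48.8 CPM in the first and 5.1 CPM in the second. Across the 8151 genes with at least 10 CPM in a group of each line, the 2 effects correlated with a Pearson r of 0.354, a description across genes, which are not independent replicates.

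**Figure D1:**
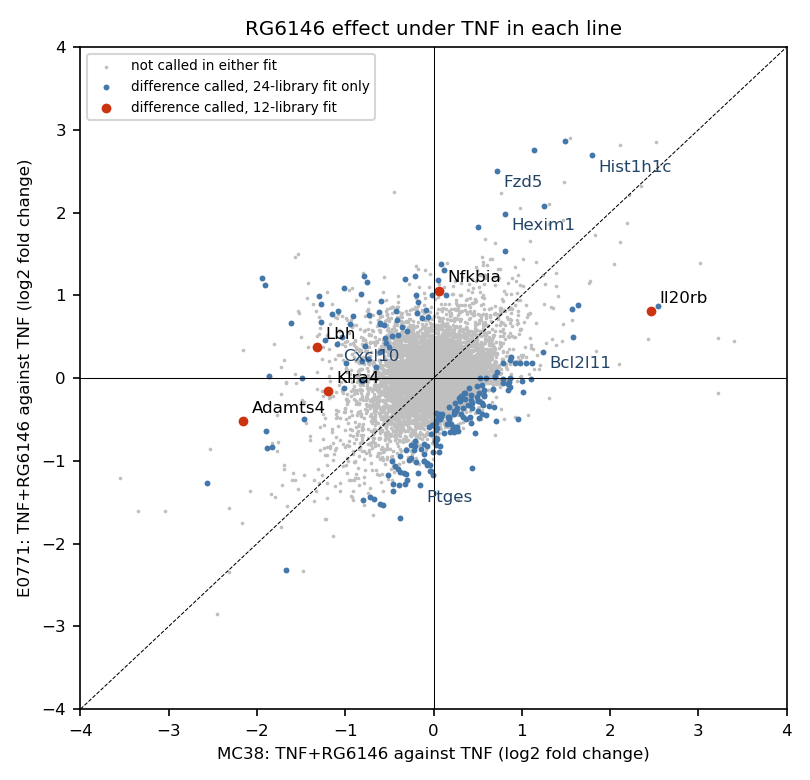
The log2 change from TNF to TNF+RG6146 in MC38 (x axis) and E0771 (y axis) for the 8151 genes with at least 10 CPM in a group of each line, 1 of which lies outside the axes. Red points are genes whose difference between the lines was called in the fit of 12 libraries, blue points those called only in the fit of all 24 libraries, and the dashed line marks equal changes; Nfkbia lies near 0 in MC38 and near 1 in E0771, and Il20rb lies on the MC38 side of the dashed line.

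The test of the difference itself called 6 of the 13566 genes (0.0442%). Of these, 5 (0.0369%) were more positive in E0771, namely Nfkbia, Lbh, Adamts4, Klra4 and Matn4, and 1 (0.00737%), Il20rb, was more positive in MC38. DESeq2 on the same libraries called 175 genes (1.29%), 82 higher (0.604%) and 93 lower (0.686%), among them 5 of the 6. A total of 2018 genes (14.9%) had an unadjusted p under 0.05. The median difference over all tested genes was 0.01. With all 24 libraries in 1 fit, which estimates the spread of each gene from 8 groups, 320 of 14058 genes (2.28%) were called, and these included all 6. Lbh was called whichever of the 12 libraries was left out, whereas without any 1 of them Nfkbia, Klra4, Adamts4 and Matn4 had adjusted p-values between 0.0599 and 0.209, and Il20rb was called in 1 of the 12 fits. The sign of the difference of each of the 6 was the same in every alternative that was run. Without the libraries that stood apart, 5 of the 6 were still called (adjusted p from 0.0079 to 0.0491), and Matn4 had a difference of 3.43 (adjusted p = 0.0703).

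Nfkbia was the most abundant of the 6. Under TNF it stood at 4079, 4386 and 3805 CPM in the 3 E0771 libraries, and with RG6146 added at 7948, 8042 and 8569.7 CPM. In MC38 it stood at 2986, 2766 and 2899 CPM under TNF and at 3116, 2737 and 3378 CPM under TNF+RG6146. All E0771 libraries with RG6146 thus lay above those without it, and the MC38 groups overlapped. The change was 1.05 ± 0.10 in E0771 (adjusted p = 6.23e-05) and 0.06 ± 0.10 in MC38 (adjusted p = 0.748), and the difference of 0.996 ± 0.14 had a 95% interval of 0.69 to 1.30 (adjusted p = 0.0446). Without TNF, where Nfkbia averaged 350.5 ± 23.3 CPM in E0771 and 264 ± 29.1 CPM in MC38 under DMSO, RG6146 raised it in both lines, by 0.65 ± 0.10 and 0.70 ± 0.10. The difference between lines without TNF was -0.04 ± 0.14 (95% interval -0.34 to 0.26). Nfkbia lies on chromosome 12 at 55489410 to 55492647, minus strand (GRCm38, GENCODE vM21), and no exon of another gene overlaps it.

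The promoter windows of 4 genes are shown because NF-kB acts through kB sites, and because Nfkbia and Cxcl10 are among its best studied targets while Lbh and Il20rb were the called genes whose difference was also found without TNF. Each window runs from 250 bases before to 50 bases after the start of the RefSeq gene, is 300 bases long and is written 5′ to 3′ on the gene's own strand. The windows are Nfkbia at chr12:55492598-55492897 (minus strand), Lbh at chr17:72918055-72918354 (plus strand), Il20rb at chr9:100486424-100486723 (minus strand) and Cxcl10 at chr5:92348840-92349139 (minus strand), all on GRCm38.p6. Capitals mark matches on either strand to a kB pattern, which is GGGA followed by 4 bases of any kind and CC, and to the AP-1 pattern TGANTCA.
Nfkbia: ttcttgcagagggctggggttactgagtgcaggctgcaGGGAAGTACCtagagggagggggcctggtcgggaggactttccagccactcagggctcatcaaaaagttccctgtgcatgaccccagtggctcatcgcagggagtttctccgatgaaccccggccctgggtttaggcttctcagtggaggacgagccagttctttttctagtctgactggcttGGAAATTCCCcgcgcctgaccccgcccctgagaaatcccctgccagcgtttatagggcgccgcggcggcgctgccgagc
Lbh: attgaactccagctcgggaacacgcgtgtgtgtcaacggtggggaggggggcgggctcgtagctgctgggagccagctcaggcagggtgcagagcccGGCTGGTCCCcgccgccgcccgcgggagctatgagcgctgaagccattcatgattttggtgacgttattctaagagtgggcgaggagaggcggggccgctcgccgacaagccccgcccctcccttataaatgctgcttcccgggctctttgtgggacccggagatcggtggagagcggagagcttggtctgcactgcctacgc
Il20rb: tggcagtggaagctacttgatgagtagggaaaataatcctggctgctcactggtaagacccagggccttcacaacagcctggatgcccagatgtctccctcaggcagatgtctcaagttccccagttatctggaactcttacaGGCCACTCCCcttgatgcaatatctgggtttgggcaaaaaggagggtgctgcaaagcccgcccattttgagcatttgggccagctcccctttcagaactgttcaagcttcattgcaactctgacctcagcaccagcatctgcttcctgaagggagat
Cxcl10: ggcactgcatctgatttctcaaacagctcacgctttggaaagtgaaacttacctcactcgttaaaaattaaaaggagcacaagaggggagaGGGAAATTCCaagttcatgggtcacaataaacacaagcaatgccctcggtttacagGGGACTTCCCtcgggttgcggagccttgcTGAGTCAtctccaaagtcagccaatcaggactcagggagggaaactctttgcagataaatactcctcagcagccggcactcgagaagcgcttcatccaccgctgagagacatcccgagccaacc
The Nfkbia and Cxcl10 windows each hold 2 matches to the kB pattern, and those of Lbh and Il20rb hold 1 each. The AP-1 pattern occurs 1 time in the Cxcl10 window and in none of the other 3. The Hexim1 window was searched in the same way, is not printed, and held neither pattern. Of all 27025 genes with such a window 22.9% hold the kB pattern and 8.97% the AP-1 pattern, and among the 9032 tested genes with a window the shares were 30.3% and 6.26%. Among the genes called in the fit of 24 libraries the kB pattern was found in 32.6% of the 86 positive and 31.6% of the 155 negative genes that had a window, and the AP-1 pattern in 4.65% and 2.58%. A match describes the letters of the window and is not a measured binding site.

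Lbh, which encodes a transcriptional cofactor linked to WNT signalling and mammary cells, had the smallest p-value. In MC38 it fell from 139.7, 153 and 148 CPM under TNF to 63.6, 58.1 and 58.3 CPM under TNF+RG6146. In E0771 the levels were lower, at 30.1, 28.5 and 32.2 CPM under TNF and 36, 34.4 and 43.3 CPM with RG6146. The groups did not overlap in either line, but only the fall in MC38 passed the test (-1.32 ± 0.12, adjusted p = 4.53e-05), the change in E0771 being 0.38 ± 0.13 (adjusted p = 0.0999). The difference was 1.70 ± 0.18 (adjusted p = 0.00291). Without TNF it was 1.40 ± 0.17 (adjusted p = 0.00174), with mean levels of 195 ± 30.2 and 70.6 ± 5.22 CPM in MC38 under DMSO and RG6146 and of 45.5 ± 3.41 and 43 ± 2.92 CPM in E0771. The gene lies on chromosome 17 at 72918305 to 72941947, plus strand.

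Il20rb, which encodes a subunit of the receptors for the cytokines IL-19, IL-20 and IL-24, was the called gene that rose more in MC38. Its MC38 levels were 3.15, 3.18 and 3.64 CPM under TNF and 21.3, 15.1 and 20.3 CPM with RG6146. In E0771 they were 10.2, 12.1 and 10 CPM and then 17.3, 17.9 and 19.6 CPM. RG6146 therefore brought a gene that was lower in MC38 under TNF to about the same level in both lines. The rise was 2.46 ± 0.19 in MC38 and 0.81 ± 0.17 in E0771, and both passed the test (adjusted p = 1.96e-05 and 0.0127). The difference was -1.66 ± 0.26 (adjusted p = 0.0446) under TNF and -1.80 ± 0.30 (adjusted p = 0.0119) without it.

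Adamts4, which encodes a metalloprotease that cleaves the proteoglycan aggrecan, had higher levels in every TNF library than in any DMSO library of its line, and fell with RG6146 in MC38. It stood at 28.9, 23.8 and 25.1 CPM under TNF and 20.2, 15.3 and 16.9 CPM under TNF+RG6146 in E0771. In MC38 the values were 31.2, 28.2 and 30.2 CPM and then 7.14, 7.43 and 5.79 CPM. The fall in MC38 was -2.16 ± 0.18 (adjusted p = 2.07e-05), the change in E0771 -0.52 ± 0.17 (adjusted p = 0.0865) and the difference 1.63 ± 0.25 (adjusted p = 0.0446). Without TNF, at a mean of 10.9 CPM in E0771 and 6.44 CPM in MC38 under DMSO, the difference was 0.45 ± 0.35 (adjusted p = 0.566). The strand setting of the counting is not known, so the Adamts4 counts may include reads from the opposite strand.

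Klra4, a member of the Ly49 family of lectin-like receptors known from natural killer cells, averaged 186 ± 5.85 CPM under TNF in MC38 and 82.9 ± 6.35 CPM with RG6146, against 32 ± 0.642 and 27.7 ± 2.28 CPM in E0771. It fell in MC38 (-1.20 ± 0.11, adjusted p = 4.53e-05), and the difference was 1.04 ± 0.16 (adjusted p = 0.0446). The family has near-identical copies, so how reads were divided among its members is uncertain. Matn4, which encodes the extracellular matrix protein matrilin-4, was the only 1 of the 6 under 10 CPM in both lines. It had 3, 2 and 4 counts in the E0771 TNF libraries and 27, 34 and 27 with RG6146, or 5.08 to 6.26 CPM. In MC38 it had between 3 and 8 counts in each of the 6 libraries, and in E0771 without TNF between 0 and 4 counts, with or without RG6146. The difference was 4.15 ± 0.62 (adjusted p = 0.0446), and Matn4 had too few counts for the test without TNF. An exon of Rbpjl overlaps it on the opposite strand.

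**Figure D2:**
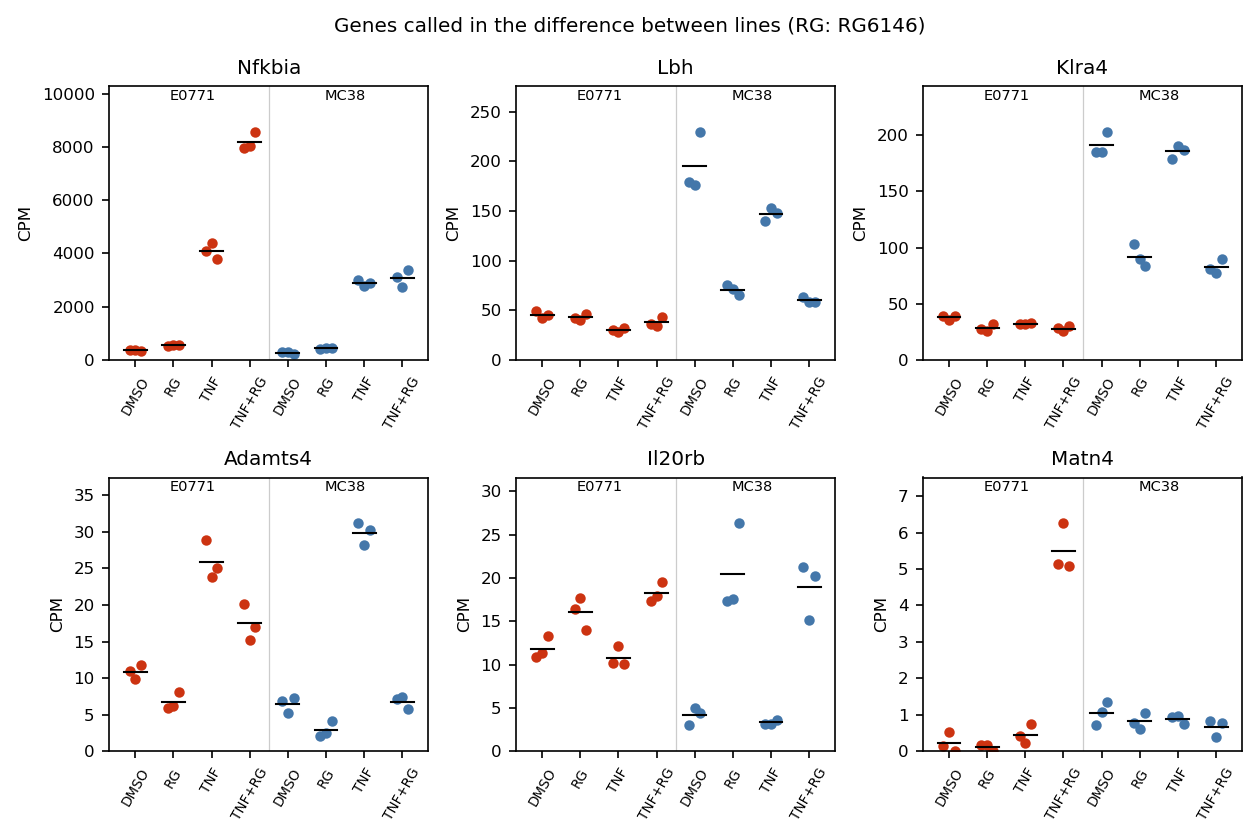
CPM of the 6 called genes in each of the 24 libraries (points; E0771 red, MC38 blue), with the mean of each group of 3 as a line and RG standing for RG6146. Nfkbia rises with RG6146 under TNF in E0771, while its MC38 groups overlap, Lbh and Klra4 fall with RG6146 in MC38, and Matn4 reaches 5.08 to 6.26 CPM in the E0771 TNF+RG6146 group alone.

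The fit of all 24 libraries gave a wider view. Of its 320 genes 116 were positive (0.825% of those tested) and 204 negative (1.45%), and 229 had at least 10 CPM in a group of each line, 74 positive and 155 negative. With library totals alone the positive share was 48.5% instead of 36.2%. The negative genes were mostly of 2 kinds: 87 fell in E0771 and were not called in MC38, and 86 rose in MC38 and were not called in E0771. Among the positive genes 49 fell in MC38 alone and 36 rose in E0771 alone, by the same count of calls, while 11 rose and 7 fell in both lines. In 10 negative and 5 positive genes the lines had calls of opposite sign. The number called changed with the libraries used: it was 87 without MC38 TNF+RG6146 replicate 2, the library with leukocyte transcripts, and 80 of the 320 were among these, while without the 4 libraries that stood apart 88 of the 320 were still called and 318 had the same sign. In every one of the 24 fits that left out 1 library, 43 of the genes were called, 23 positive and 20 negative. The genes below are named from these fits, since 6 called genes leave most gene groups without a member, and each value is said to come from 24 libraries where it does.

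Genes known to rise with BET inhibitors rose in both lines. The fit of 24 libraries called 3 of them as higher in E0771 and none as lower, beside 0.825% and 1.45% of all genes. Of 12 tested, 7 rose and none fell in each line, beside 2.91% and 3.28% of all genes that rose. The median change was 2.0 in E0771 and 1.40 in MC38, against medians of 0.02 and -0.02 over all genes. It was 1.94 and 0.86 without the library with leukocyte transcripts, and 1.77 and 1.37 without the libraries that stood apart. In both of these fits 13 of the listed genes were tested. The Hexim1 values were 70.6, 55.7 and 57.1 CPM under TNF and 239, 248 and 216 CPM with RG6146 in E0771, and 44.7, 32.8 and 37.5 CPM and 70.7, 67.4 and 67.9 CPM in MC38. The groups of each line did not overlap, and the rise was 1.99 ± 0.15 in E0771 and 0.81 ± 0.15 in MC38. The difference was 1.18 ± 0.21 (adjusted p = 0.0773) in 12 libraries and was called in 24 (adjusted p = 0.0102), also in each fit without 1 library. Without TNF it was 0.67 (adjusted p = 0.169). Hist1h1c, a linker histone gene, went from 66.1, 75.6 and 69 CPM to 395, 475 and 442 CPM in E0771, and from 30.9, 33.7 and 34.3 CPM to 119, 105 and 128 CPM in MC38. Its difference was 0.90 ± 0.16 (adjusted p = 0.0798 in 12 libraries, 0.00977 in 24), and without TNF it was 0.88 (adjusted p = 0.0104). Sertad1, which encodes a regulator of the cyclin-dependent kinase CDK4, rose by 2.08 ± 0.15 and 1.25 ± 0.15. Its difference without TNF was 0.94 (adjusted p = 0.0119). Under TNF its difference was called in 24 libraries (adjusted p = 0.0298) and in 17 of the 24 fits without 1 library. It was not called without the 4 libraries that stood apart (adjusted p = 0.0934). No difference was called for other members: Hist1h2bc rose by 2.82 ± 0.18 and 2.12 ± 0.17 (95% interval of the difference 0.18 to 1.22), and Brd2, a BET gene itself, by 1.73 ± 0.21 and 1.83 ± 0.21 (interval -0.72 to 0.52). Exons of other genes overlap Brd2 on the opposite strand.

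**Figure D3:**
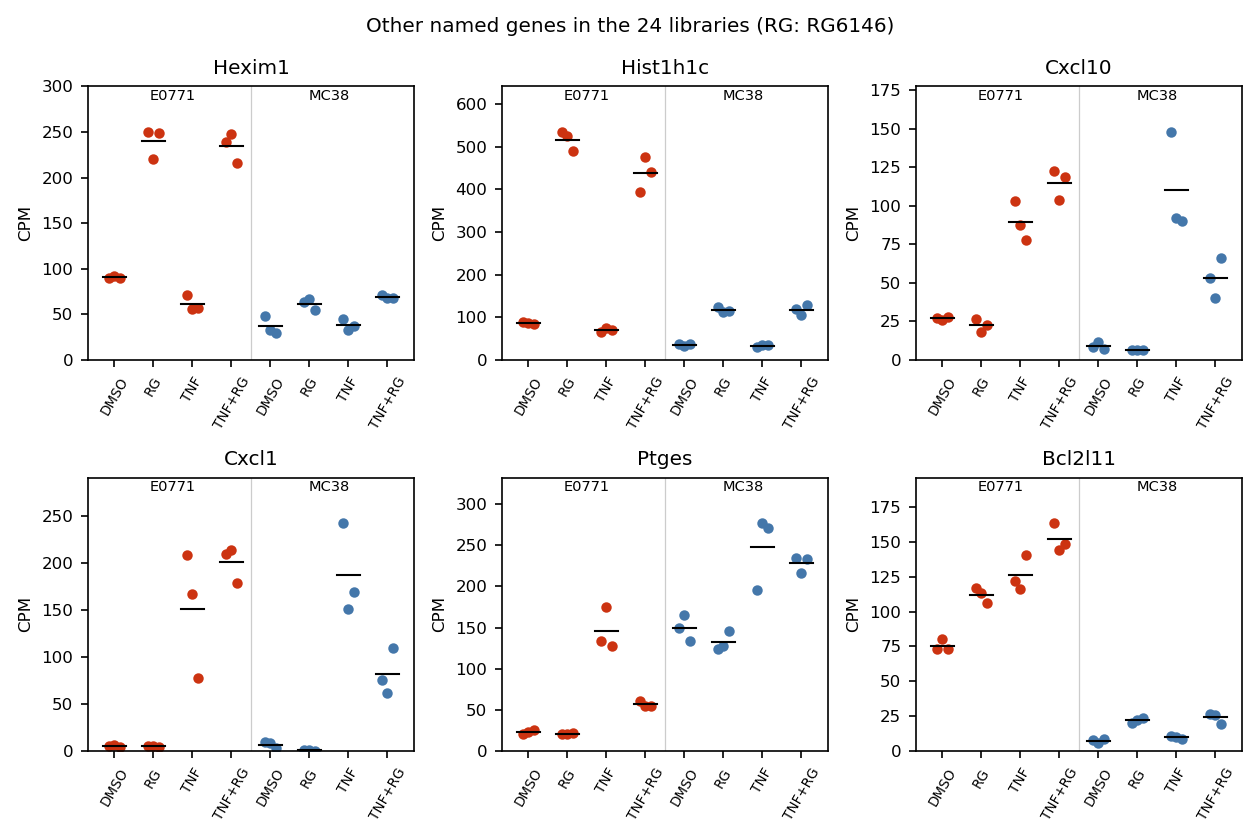
CPM of 6 other named genes in each of the 24 libraries (points; E0771 red, MC38 blue), with the mean of each group of 3 as a line and RG standing for RG6146. Hexim1 and Hist1h1c rise with RG6146 in both lines and further in E0771, Cxcl10 and Cxcl1 fall with RG6146 under TNF in MC38 alone, Ptges falls in E0771 alone, and Bcl2l11 rises in MC38 from about 10 CPM.

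Of the NF-kB inhibitors and feedback regulators, Nfkbia alone differed between the lines in 12 libraries. Of 19 tested, 11 differences were positive, and the median was 0.17 beside 0.01 over all genes. That median was 0.05 without the libraries that stood apart and 0.09 without the library with leukocyte transcripts. Within lines 2 rose and 4 fell in E0771, where 2.91% and 4.17% of all genes did, and none rose and 3 fell in MC38, where the shares over all genes were 3.28% and 5.64%. Nfkbiz, which encodes an atypical IkB protein, was not taken by the rule for named genes and was chosen after its values were seen. It shared the direction of Nfkbia, with a rise of 0.73 in E0771 and a change of 0.08 in MC38. Its difference of 0.65 was not called (unadjusted p = 0.0119, adjusted p = 0.242). Tnfaip3 encodes A20, an enzyme that edits ubiquitin and ends NF-kB signalling. Its E0771 libraries held 18.1, 9.16 and 6.14 CPM under TNF and 9.72, 16 and 14.3 CPM with RG6146, and its MC38 libraries 17.5, 6.49 and 4.1 CPM and 1.96, 1.73 and 0.965 CPM. The E0771 groups overlapped while the MC38 groups did not, and replicate 1 was the highest TNF library in both lines. The difference was 2.86 ± 0.77 (adjusted p = 0.195 in 12 libraries, 0.0308 in 24, and 0.14 without the 4 libraries that stood apart). Relb, which encodes an NF-kB subunit, averaged between 63.5 and 68.4 CPM in all 4 groups, and its difference was within -0.48 to 0.48.

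Chemokine genes had a positive difference in 7 of 8 tested, with a median of 0.57, although none was called in 12 libraries. Without the library with leukocyte transcripts all 8 were positive and the median was 1.06. Without the libraries that stood apart, that library among them, 7 were positive and the median was 0.72. In MC38 5 of the 8 fell, beside 5.64% of all genes, and in E0771 1 did, beside 4.17%. Without the libraries that stood apart 5 fell in MC38 and 3 in E0771, beside 784 and 1146 of 13467 genes. Without the library with leukocyte transcripts alone 4 and 1 fell, beside 417 and 663 of 13853 genes. Cxcl10 encodes a ligand of the receptor CXCR3 that draws T cells, and it was at 103, 87.7 and 77.5 CPM under TNF and 123, 104 and 119 CPM with RG6146 in E0771. In MC38 it was at 148, 92.3 and 90.4 CPM and then 53.5, 40.1 and 66.4 CPM. Thus the lowest E0771 library with RG6146 was just above the highest without it, and in MC38 all libraries with RG6146 were lower. The difference was 1.5 ± 0.31 (adjusted p = 0.106) in 12 libraries and was called in 24 (adjusted p = 0.0102), also in each fit without 1 library. An exon of Art3 overlaps Cxcl10 on the opposite strand. Cxcl1, a neutrophil chemokine gene, changed by 0.45 ± 0.30 in E0771, where its TNF libraries spread from 78.3 to 208 CPM, and fell by 1.23 ± 0.31 in MC38 on the log2 scale. Its difference of 1.68 ± 0.43 was called in 24 libraries (adjusted p = 0.0343), but not without the 4 that stood apart (adjusted p = 0.112). Without TNF the Cxcl1 difference was 2.56 (adjusted p = 0.0329) and that of Cxcl10 0.28 (adjusted p = 0.655).

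Ccl2 and Ccl7, genes of monocyte chemokines, had large changes and a wide spread. Ccl2 was at 1529, 1020.5 and 349 CPM under TNF in E0771 and at 319, 319 and 284 CPM with RG6146, and at 3021, 1016 and 869 CPM and 135, 197 and 282 CPM in MC38. Replicate 1 of the TNF group was the highest in each line, as for Tnfaip3. The fall of Ccl2 was called in MC38 (-3.04 ± 0.54), the change in E0771 was -1.61 ± 0.52 (adjusted p = 0.0843), and the difference of 1.43 ± 0.72 had a 95% interval of -0.11 to 2.98. Ccl7 fell in both lines, by 1.44 ± 0.33 and 1.80 ± 0.34 on the log2 scale. Of 11 other cytokine and growth factor genes induced by NF-kB, 3 fell in E0771 and 5 in MC38, beside 4.17% and 5.64% of all genes, and no difference between the lines was called in 12 or 24 libraries.

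Of 17 anti-apoptotic genes tested, the fit of 24 libraries called 3 as lower in E0771 and none as higher, beside 1.45% and 0.825% of all genes. In 12 libraries none was called. The median difference was -0.16, and it was -0.10 without the libraries that stood apart and -0.27 without the library with leukocyte transcripts. Mcl1 encodes a BCL-2 family protein with a short life. In E0771 it went from 181, 183 and 149.9 CPM to 99.6, 92.6 and 103 CPM, and in MC38 it was at 205, 153 and 168 CPM and then 172, 165 and 213 CPM. It fell in E0771 (-0.75 ± 0.14, adjusted p = 0.00721) while the MC38 groups overlapped, and the difference was -0.77 ± 0.20 (adjusted p = 0.19 in 12 libraries, 0.0321 in 24). Traf1, which encodes an adaptor of TNF receptor signalling, fell in both lines, from 36.4, 37 and 39.8 CPM to 8, 6.26 and 7.53 CPM in E0771 and from 62.9, 66.4 and 62.8 CPM to 20.7, 21.4 and 19.7 CPM in MC38. Its falls of -2.32 ± 0.15 and -1.67 ± 0.13 differed in the fit of 24 libraries (adjusted p = 0.048), but in only 4 of the 24 fits without 1 library. Bcl2l1, the gene of BCL-XL, fell in both lines and had a difference between -0.99 and 0.15. Birc2, the gene of the ubiquitin ligase cIAP1, fell in MC38 (-1.20 ± 0.20), changed by -0.19 ± 0.22 in E0771, and had a difference of 1.01 ± 0.29 (adjusted p = 0.213 in 12 libraries, 0.0707 in 24).

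Of 22 death receptor, caspase and pro-apoptotic genes 1 was called in the fit of 24 libraries, beside 2.28% of all genes, and none in 12. This was Bcl2l11, which encodes the BH3-only protein BIM. In MC38 it rose from 10.7, 10.4 and 8.95 CPM to 27, 25.9 and 19.7 CPM. In E0771, where it was more abundant, it was at 122, 116 and 140.2 CPM and then 163, 144 and 149 CPM. The rise passed the test in MC38 (1.24 ± 0.16), the change in E0771 was 0.32 ± 0.14 (adjusted p = 0.214), and the difference was -0.92 ± 0.21 (adjusted p = 0.14 in 12 libraries, 0.0104 in 24). It was also called without TNF (-0.99, adjusted p = 0.0294). Fas, the gene of a death receptor, fell in both lines, from 14.2, 13.3 and 12.8 CPM to 4, 3.87 and 4.9 CPM in E0771 and from 30.9, 15.9 and 15.3 CPM to 0.84, 2.12 and 3.47 CPM in MC38. Its difference was 1.74 ± 0.54 (adjusted p = 0.225 in 12 libraries, 0.0618 in 24).

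Immediate early genes, which respond within minutes to hours of a signal, were called in both directions. The fit of 24 libraries called 3 as higher in E0771 and 1 as lower, beside 0.825% and 1.45% of all genes. Of 30 tested, 9 rose and 3 fell in E0771, beside 2.91% and 4.17% of all genes, and 6 rose and 2 fell in MC38, beside 3.28% and 5.64%. The median changes were 0.69 and -0.03. The median of the differences was 0.15, and it was -0.01 without the libraries that stood apart. Jun, the gene of the AP-1 subunit c-Jun, stood at 231, 195 and 198 CPM and then 322, 343 and 336 CPM in E0771, and at 776, 597 and 599.9 CPM and then 671, 553 and 622 CPM in MC38. It rose in E0771 (0.73 ± 0.14) and the MC38 groups overlapped, and the difference of 0.86 ± 0.19 was called in 24 libraries (adjusted p = 0.0155), not in 12 (adjusted p = 0.127) and not in 24 without those that stood apart (adjusted p = 0.0548). An exon of the antisense gene Junos overlaps it. Nr4a2, an orphan nuclear receptor gene, rose by 1.01 ± 0.22 in E0771 and changed by -0.20 ± 0.22 in MC38, and its difference lost its call in 24 libraries (adjusted p = 0.0316) without those that stood apart (adjusted p = 0.0932). Junb, the gene of another AP-1 subunit, had a difference of 1.04 in 24 libraries (adjusted p = 0.0336). It stayed called without those that stood apart (adjusted p = 0.0053), but not without the library with leukocyte transcripts alone (adjusted p = 0.0689). Fosl2, the gene of the AP-1 subunit FRA-2, went the other way: it fell by 1.17 ± 0.14 in E0771 and by 0.52 ± 0.14 in MC38 on the log2 scale, and was called as lower in E0771 in 24 libraries (adjusted p = 0.0316), also without those that stood apart (adjusted p = 0.0096), but not without the library with leukocyte transcripts alone (adjusted p = 0.0522).

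Among 41 interferon-stimulated genes and their regulators 14 fell in E0771, beside 4.17% of all genes, and 7 fell and 1 rose in MC38, beside 5.64% and 3.28%. The median difference was -0.01. Leaving out those of the 12 libraries that stood apart raised the falls to 23 and 20, beside 1146 and 784 of 13467 genes. The median difference was then 0.13. In the fit of 24 libraries Socs1 was called as higher in E0771 and Irf9 as lower. Neither was called without the libraries that stood apart (adjusted p = 0.0768 and 0.111), and they were called in 12 and 8 of the 24 fits without 1 library. Socs1 encodes an inhibitor of cytokine signalling, and its TNF libraries spread from 24.4 to 72.3 CPM in E0771 and from 33.3 to 118 CPM in MC38, with a difference of 2.29 ± 0.62. Irf9, which encodes the DNA-binding part of the factor ISGF3, fell in E0771 by 1.10 on the log2 scale and changed by -0.40 in MC38. Among 21 genes of MHC class I antigen presentation 17 differences were positive, as were 6941 of the 13566 over all genes, and 1 gene fell in E0771 and 5 fell in MC38, beside 4.17% and 5.64% of all genes. The median difference was 0.27, and 0.42 without the libraries that stood apart. In that fit 3 rose and 3 fell in E0771, beside 766 and 1146 of 13467 genes, and 5 fell in MC38, beside 784. Without the library with leukocyte transcripts alone the median difference was 0.29, with 15 differences positive. There 1 fell in E0771 and 2 in MC38, beside 663 and 417 of 13853 genes. Psmb9, which encodes an immunoproteasome subunit, was called in 24 libraries (difference 1.93 ± 0.45, adjusted p = 0.0213). Its groups were 35.7, 22.5 and 17.5 CPM and 42.5, 51 and 32.2 CPM in E0771, and 56.7, 35.8 and 36.3 CPM and 12.7, 25.5 and 20.8 CPM in MC38, so those of E0771 overlapped. An exon of Tap1 overlaps Psmb9 on the opposite strand.

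Ptges and Vcam1, whose TNF libraries all lay above the DMSO libraries of their line, were called as lower in E0771. Ptges encodes the prostaglandin E synthase that acts after cyclooxygenase. In E0771 it fell from 134, 175 and 128 CPM to 61.3, 55.2 and 55.4 CPM, and in MC38 it was at 196, 276 and 270.1 CPM and then 234, 216 and 233 CPM. The fall passed the test in E0771 (-1.29 ± 0.14), the MC38 groups overlapped (-0.15 ± 0.14), and the difference was -1.14 ± 0.20 (adjusted p = 0.0683 in 12 libraries, 0.00401 in 24), called in each fit without 1 library. Without TNF Ptges differed by 0.09 (adjusted p = 0.854). Vcam1, the gene of an adhesion molecule for leukocytes, fell from 40.8, 45.1 and 40.5 CPM to 15.2, 12.9 and 16.2 CPM in E0771 and from 521, 536 and 544 CPM to 395, 295 and 338 CPM in MC38. The groups were apart in both lines, and the difference was -0.78 ± 0.17 (adjusted p = 0.127 in 12 libraries, 0.0107 in 24), called in 23 of the 24 fits without 1 library. Without TNF the Vcam1 difference had the other sign and was not called (0.69, adjusted p = 0.259). Icam1, a related adhesion gene, averaged 48.2 CPM under TNF in E0771 and 1.26 CPM in MC38, and its difference had no stable sign.

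Other genes called in 24 libraries and in each fit without 1 library came from several groups. Fzd5, a WNT receptor gene, went from 9.41, 10.7 and 11 CPM to 52.4, 54.7 and 62.5 CPM in E0771 and from 12, 7.1 and 6.22 CPM to 13.2, 15.1 and 14.3 CPM in MC38. The groups were apart in both lines and the difference was 1.78 ± 0.31 (adjusted p = 0.0683 in 12 libraries, 0.00401 in 24). Without TNF it was 1.19 (adjusted p = 0.0415). Tob1, the gene of an antiproliferative protein that promotes mRNA decay, went from 6.27, 2.41 and 5.02 CPM to 27.6, 30 and 30.7 CPM in E0771 and from 4.88, 4.16 and 2.88 CPM to 7.28, 5.97 and 7.53 CPM in MC38. Its difference was 1.99 ± 0.44 under TNF and -0.39 without TNF. Lgr4, a receptor gene for R-spondins, had a difference of 2.1 ± 0.42, with opposite calls in the 2 lines in 24 libraries (1.03 ± 0.28 and -0.97 ± 0.28); it was not called without the libraries that stood apart (adjusted p = 0.0621). Trim59, a gene of the tripartite motif family, had a difference of 3.03 ± 0.57, but its MC38 TNF libraries spread from 27.3 to 79.4 CPM with replicate 1 the highest. Hbegf, the gene of an EGF receptor ligand, had a difference of -0.78 ± 0.17, and Ppan, a ribosome biogenesis gene, 1 of -0.97 ± 0.19, which was not called without the libraries that stood apart (adjusted p = 0.0515). Midn, Pik3r1, Dnmt3b, Adamts1 and Klf7, chosen after their values were seen, belonged to the same 43 genes, with differences in 24 libraries of 1.22, 1.10, 1.44, 1.41 and -1.17.

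Of 29 genes of the integrated stress and unfolded protein responses 5 rose and 2 fell in E0771, beside 2.91% and 4.17% of all genes, and 6 rose and 1 fell in MC38, beside 3.28% and 5.64%. The fit of 24 libraries called 2 of them as lower in E0771, beside 1.45% of all genes. Ddit3, which encodes the stress factor CHOP, rose in both lines, from 77.7, 96.2 and 81.8 CPM to 146, 151 and 158 CPM in E0771 and from 145, 164 and 169.9 CPM to 609.6, 456 and 455 CPM in MC38. Its difference of -0.74 ± 0.18 was called in 24 libraries (adjusted p = 0.0322) but not without those that stood apart (adjusted p = 0.0907), and in 15 of the 24 fits without 1 library. Exons of Mars overlap it. Of 38 MYC network and ribosome biogenesis genes 1 was called in 24 libraries, as lower in E0771, which was Ppan; the share over all genes was 1.45%. Myc itself was at 98.9, 52 and 46.5 CPM and then 72.2, 95.9 and 76.1 CPM in E0771, and at 43, 8.69 and 10.8 CPM and then 7, 10.2 and 10.8 CPM in MC38, where only replicate 1 of the TNF group stood above the rest. Its difference was 1.54 ± 0.71 (adjusted p = 0.332). Of 38 cell cycle genes none was called in either fit.

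**Figure D4:**
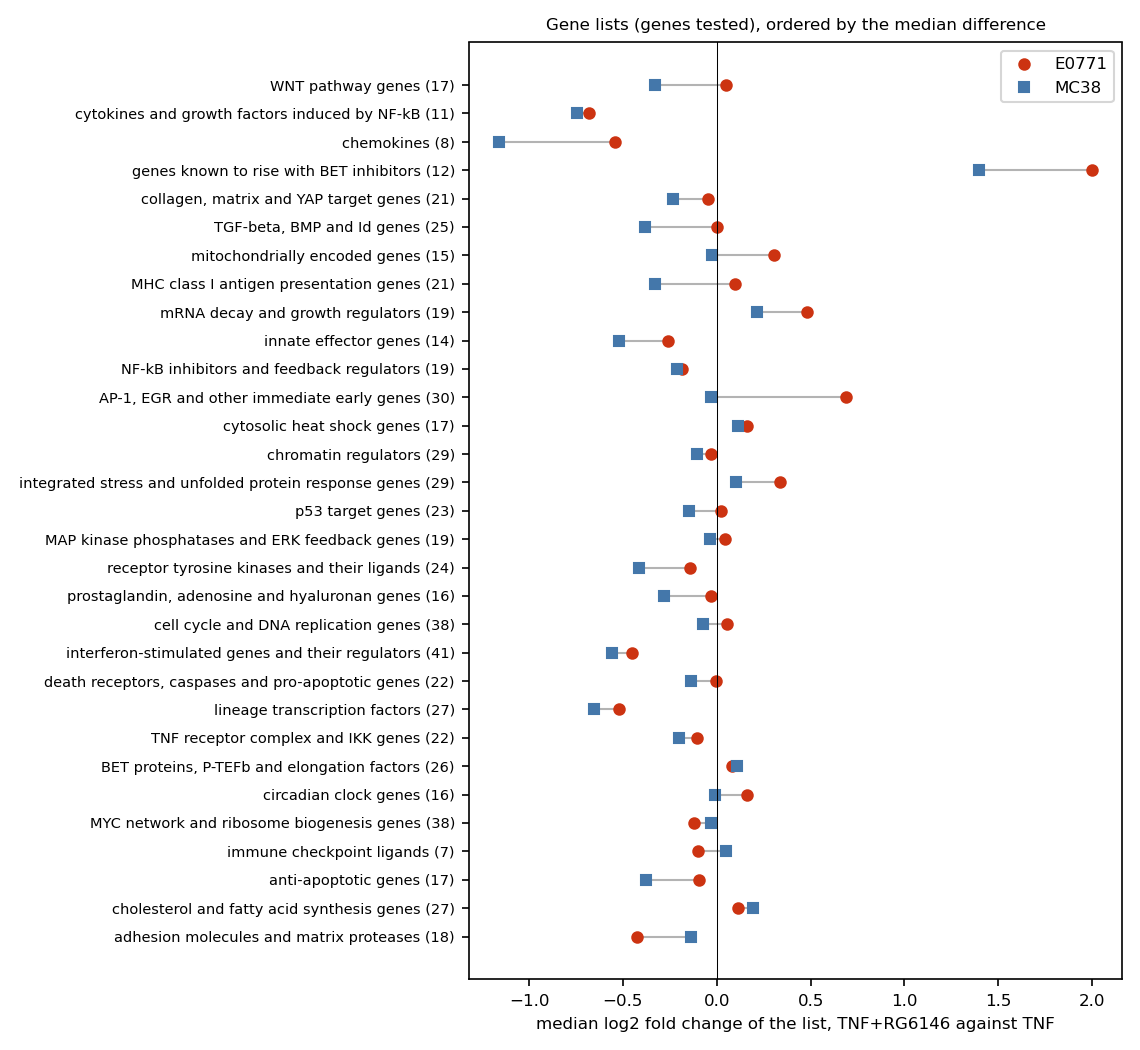
Median log2 change from TNF to TNF+RG6146 in E0771 (red circles) and MC38 (blue squares) for the gene lists with at least 7 tested members, other than the leukocyte markers; the number tested stands in brackets and lists are ordered by the median of their members' differences. Genes known to rise with BET inhibitors stand at 2.0 and 1.40, and chemokines at -0.54 and -1.16.

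Some of the largest negative differences rested at least in part on the library that held leukocyte transcripts. S100a8, a gene of neutrophil calprotectin, was at 12.7, 1219 and 1.54 CPM in the MC38 TNF+RG6146 libraries and at 1.42, 3.8 and 5.01 CPM under TNF, and in E0771 at 131, 175 and 145 CPM and then 123, 109 and 115 CPM. Its difference was -7.21 ± 2.06 with that library and -1.52 in 24 libraries without it (adjusted p = 0.318). S100a9, Ngp and Camp, other neutrophil genes, stood at 591, 302 and 305 CPM in that library. Their differences in 24 libraries were -10.9, -11.5 and -13.3. Without that library they were smaller but still -5.08, -5.87 and -7.05 (adjusted p = 0.166, 0.176 and 0.112). Their changes in E0771 in 24 libraries were -3.51 ± 2.22, -4.28 ± 2.64 and -4.91 ± 2.77, none of them called. All 7 leukocyte markers tested had a negative difference, with a median of -2.87, which was 0.58 without that library. None of the 6 called genes is on the leukocyte list except by family, since Klra4 belongs to a natural killer receptor family; its level in that library, 77.6 CPM, was the lowest of its group.

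The same difference between lines could be measured without TNF in the other 12 libraries, which share none with the comparison above. There 69 of 13612 genes (0.507%) were called. Of 13358 genes tested in both comparisons 63.7% had the same sign. Of 310 such genes called under TNF in the fit of 24 libraries 270 did (87.1%), and 33 of the 310 were called without TNF. That fit took each gene's spread from the libraries without TNF as well, so these genes were not chosen separately from them. Of 174 genes called under TNF by DESeq2 in 12 libraries, 154 had the same sign (88.5%) and 29 were called without TNF. Among the 5 of the 6 genes that could be tested, 4 had the same sign, and Lbh and Il20rb were called. Across the 8151 genes with at least 10 CPM in a group of each line the 2 differences correlated with a Pearson r of 0.472, again a description across genes. The test of whether the difference between lines changed with TNF called none of 14058 genes with edgeR and 7 with DESeq2, while 894 (6.36%) had an unadjusted p under 0.05. For Nfkbia this change was 0.96 ± 0.19 (adjusted p = 0.241), so a dependence on TNF was not shown for it.

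**Figure D5:**
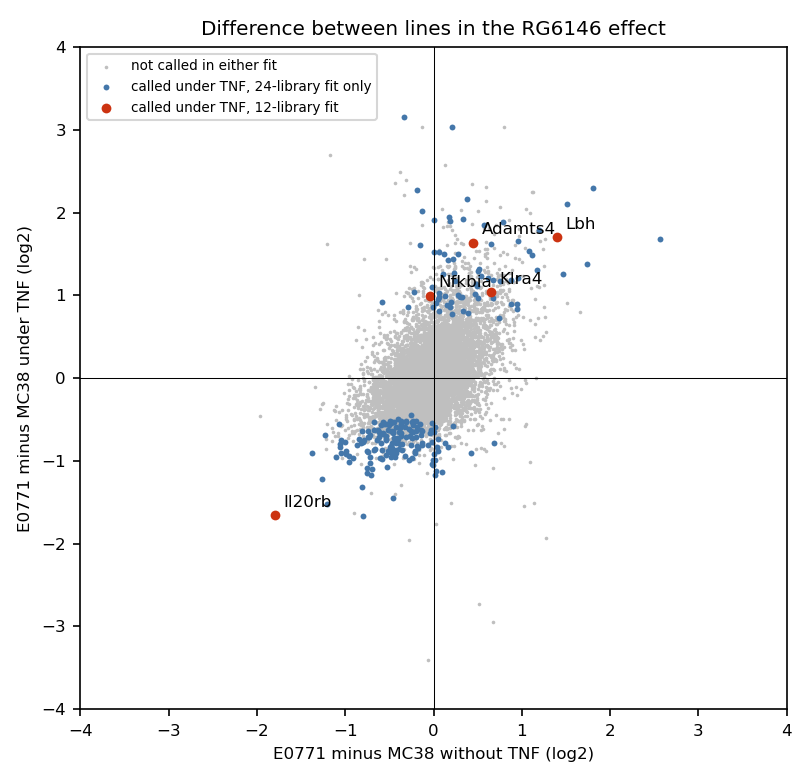
The difference between lines in the RG6146 effect (E0771 minus MC38, log2) without TNF (x axis) and under TNF (y axis) for the 8151 genes with at least 10 CPM in a group of each line, 1 of which lies outside the axes. Red points were called under TNF in 12 libraries and blue points only in 24; Lbh and Il20rb lie far from 0 on both axes, and Nfkbia lies near 0 on the x axis and near 1 on the y axis.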

How the data were processed

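The authors deposited 1 table of raw read counts per gene, with 43629 Ensembl gene identifiers and 24 libraries; the unit is count, per the labels and the whole-number values. Libraries were made with a kit that reads 3′ ends, per the labels' protocols. Per the submitters' processing notes the tools were cutadapt 1.14, HISAT2 2.1.0 and the featureCounts program (Subread 1.5.2), with the build mm10. Annotation and strand setting: not given in the sources used here. Symbols were found for 42462 identifiers, and positions came from GENCODE vM21.

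In R 4.3.3, edgeR 4.0.16 (filterByExpr, TMM, estimateDisp, glmQLFit, glmQLFTest) fitted the 12 libraries with TNF in 4 groups without covariates. Tests were two-sided with Benjamini-Hochberg adjustment across the tested genes. The threshold for a call was 0.05 after adjustment. SE is the absolute log2 fold change over the root of F, and the prior count was 0.125. Alternatives used DESeq2 1.42.0, limma 3.58.1 (voom), other scalings and filters, all 24 libraries, and fits without single libraries. The fitting code was tested on simulated data.

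The rule for named genes took the 12 largest differences in each direction among called genes with at least 10 CPM in a group of each line, the 4 largest under 10 CPM in 1 line, for each of 35 lists the 2 called members of lowest p per direction, and fixed genes such as Hexim1, Nfkbia and Cxcl10. Once the data were known, the rule was applied to the fit of 24 libraries as well, and the text prints part of what it gave. The comparison, its members and the lists were chosen with earlier results of these data known. Promoter windows came from RefSeq (GRCm38.p6). Within each pair of replicates the counts differed by more than sampling noise, so no library was taken for a copy of another. That check does not judge the quality of a library, and the main fits kept all of them.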

Additional observations from a re-analysis of the deposited data

Results flagged for a closer look

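A set of 6 genes had an RG6146 effect under TNF that differed between the lines by its own test: Adamts4 (difference 1.63 on the log2 scale), Il20rb (-1.66), Klra4 (1.04), Lbh (1.70), Matn4 (4.15) and Nfkbia (0.996). Without TNF the same test called 69 genes. What lies behind these differences was not tested. The groups of 3 libraries are too small for a search for single outlying values.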

How the results depend on the processing

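The number of genes whose difference between lines was called under TNF, 6, varied with the setting. It was 1 with RLE size factors, 2 with limma-voom, 175 with DESeq2, 814 with no filter on low counts, 17 without the libraries that stood apart and 320 in the fit of 24 libraries; the cause was not tested. It was 6 with library totals alone or a robust fit and 4 with a filter of 10 CPM. Leaving out 1 library gave 1 to 3. All called genes were higher in E0771 with RLE size factors, against 83.3% with TMM.

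The numbers called within lines were 961 in E0771 and 1210 in MC38. The E0771 number was 1912 without the libraries that stood apart and 1663 in the fit of 24 libraries, and ranged from 398 to 1322 when 1 library was left out; it was 456, 398 and 517 without E0771 TNF+RG6146 replicates 1, 2 and 3. The MC38 number was 2240 with no filter and 2372 in the fit of 24 libraries, and ranged from 672 to 1759, with 685, 672 and 778 without MC38 TNF+RG6146 replicates 1, 2 and 3. Without TNF the 69 genes became 169 with DESeq2 and 445 with no filter, and 21 to 1233 when 1 library was left out, the highest without MC38 DMSO replicate 3. It was between 21 and 33 without any 1 E0771 library, 45 without MC38 DMSO replicate 1, and 27 and 41 without MC38 RG6146 replicates 2 and 3. The change of the difference with TNF, 0 with edgeR, was 7 with DESeq2 and 152 with no filter.

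In the fit of 24 libraries, added after the data were seen as a result of its own, 320 became 172 without the libraries that stood apart and 576 with DESeq2. Leaving out 1 library gave 65 to 709, highest without E0771 TNF replicate 1. It was 567 without MC38 TNF+RG6146 replicate 3 and 87 without replicate 2 of that group, 84 without MC38 TNF replicate 1, and 85, 65 and 82 without E0771 TNF+RG6146 replicates 1, 2 and 3. Without E0771 TNF replicates 2 and 3 it was 170 and 104, and without each single E0771 library of the DMSO and RG6146 groups between 158 and 211.

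Same-numbered TNF and TNF+RG6146 libraries had deviations that correlated at -0.098, -0.005 and 0.075 in E0771 and at -0.244, -0.029 and -0.19 in MC38. For DMSO and RG6146 libraries the values were -0.06, -0.076 and 0.006 in E0771 and 0.179, -0.122 and -0.034 in MC38. These values did not show a pairing by replicate number, and with 3 libraries in each group they cannot exclude it. With the replicate number as a block 0 genes were called for the difference, 437 in E0771, 551 in MC38, 3 without TNF and 211 in the fit of 24 libraries.

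Of 1818 values of the 83 named genes under alternatives, 1560 kept their direction and side of the threshold, 77 were no longer called, 153 became called and 28 changed sign. None of the 9 genes with a changed sign was called in 12 libraries, and 1 of them, Lcn2, was called in 2 alternatives, with no filter and in the fit of 24 libraries (-7.38); its sign changed without the library with leukocyte transcripts. With limma-voom these were Cxcl2 (0.49), Icam1 (0.25) and Relb (0.017), and under the replicate block Icam1 (0.027) and Relb (0.027). Without the libraries that stood apart they were Ccl7 (-0.0089), Cflar (-0.10), Cxcl2 (0.28), Icam1 (1.41), Lcn2 (1.85) and Relb (0.047). When 1 library was left out, the lowest and highest values were for Brd2 -0.39 and 0.072, Ccl7 -0.082 and 0.55, Cflar -0.026 and 0.26, Cxcl2 -1.10 and 0.20, Icam1 -0.49 and 0.97, Lcn2 -9.88 and 1.15, Prdm1 -0.69 and 0.0029, Relb -0.21 and 0.19 and Runx1t1 -0.49 and 0.10. Depth limits the genes under 10 CPM, such as Matn4, whose values rest on few counts.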
